A study of Mus musculus with 18 samples.

Results

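The 9 transcription factor genes Hnf4a, Foxa1, Foxa2, Foxa3, Cebpa, Cebpb, Nr1h4, Onecut1 and Nr1i3, taken by symbol from the 54838 genes of the deposited expression table, were examined in 18 mouse livers and liver tumours. The study profiled RNA from 6 groups of 3 samples: normal livers, non-tumours and tumours of wild type (WT) and miR-181ab1 global knockout (GKO) mice, which lack the Mir181a-1 and Mir181b-1 genes in every tissue. Tumours and non-tumours came from mice given the liver carcinogen diethylnitrosamine (DEN), 25 mg/kg into the abdomen on postnatal day 12, whereas normal livers came from untreated mice. All samples were labelled C57BL/6 and 36 weeks of age, and per the methods the WT mice were Cre-negative or Cre-only littermates from the study's crosses, without a statement of which gave these samples. The labels do not say which samples shared a mouse, so p-values measure the spread between these samples. The hairpin gene Mir181b-1 was listed at 0 in all 18 samples and Mir181a-1 at 0 in 17, with 1.40 TPM, equal to 1 read, in GKO tumour 3, so these values do not check the genotype. Values are TPM, reads per unit of gene length that add up to 1000000 in every sample, so that levels of different genes can be compared. Samples held between 11925055 and 20751348 reads on genes.

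Hepatocyte identity rests on a small network of transcription factors that bind each other's genes and share target enhancers. HNF4α is a nuclear receptor at the centre of this network. The FOXA proteins open closed chromatin, C/EBPα supports metabolic genes in resting hepatocytes, and C/EBPβ responds to inflammation and regeneration. FXR, encoded by Nr1h4, is the bile acid receptor, and CAR, encoded by Nr1i3, is the receptor that drives drug-metabolising P450 genes in the cells around the central vein. HNF6, encoded by Onecut1, acts in hepatocyte and bile duct development. The tissue was liver by its markers: 11 of 12 hepatocyte markers were found by symbol, and they summed to between 78434 and 104800 TPM in the 12 normal livers and non-tumours and to between 179750 and 215944 TPM in the 6 tumours. The higher tumour sums were mostly albumin (Alb) and Apoa1. Of the 11, 3 were called higher and 2 lower in tumours over both genotypes, with a median log2 difference of -0.09, and the lower ones were Cyp2e1, a perivenous P450, at -4.84 and Hpd, a tyrosine-degrading enzyme, at -2.04 (limma adjusted p = 0.00173 and 0.00633). In bulk tissue, fewer cells of a type and less RNA per cell cannot be told apart.

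The deleted locus makes miR-181a and miR-181b, which recognise messages through the seed. Their mature 5p sequences, from RefSeq on GRCm38.p6, are shown with bases 2 to 8 in capitals, because these are the letters looked for in the 9 messages. The first lies at chr1:137966468-137966490 and the other at chr1:137966650-137966673, both on the plus strand.
miR-181a-5p: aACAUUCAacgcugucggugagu
miR-181b-5p: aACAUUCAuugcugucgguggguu
Both share 1 seed. Mature miR-181a and miR-181b are also made from another locus, which the GKO mice keep. Among the 9 members, Nr1h4 alone held a match to the seed in its 3′ untranslated region in the GENCODE release 21 annotation. The match had the 8mer form TGAATGTA, began at base 323 of the 476-base region and lay at chr10:89454380-89454387 on the minus strand. It is shown in capitals with its flanks.
Nr1h4 site: agacaataaacTGAATGTAatagcaaggag
For scale, genes averaging at least 0.5 TPM over the 18 samples were searched in their longest 3′ untranslated region. Of these 11592 genes, 2128 (18.4%) held at least 1 match to bases 2 to 8, in the 8mer form or not. A seed match in 1 of 9 messages is thus not unusual, and the share with the 8mer form was not computed. A match of letters is a description and does not show that the message is bound.

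Levels per length differed widely between the 9 factors. Cebpa had the highest mean over the 18 samples, 462 TPM, followed by Cebpb at 288, Hnf4a at 157, Nr1h4 at 99.0 and Foxa3 at 82.1 TPM. Foxa2 (24.0 TPM), Nr1i3 (16.8 TPM) and Foxa1 (9.67 TPM) were lower. Onecut1 was lowest at 1.07 TPM, with between 3 and 97 reads per sample, so its values are imprecise. All 9 exceeded the minimum mean of 0.5 TPM set for testing in each comparison. When the 6 groups were ordered by mean for each member, neighbouring groups, which are those closest in mean, overlapped in 44 of 45 pairs. The exception was Nr1i3, whose WT normal livers lay above the GKO tumours next to them in the order. Neighbours were picked for their close means, so overlap is likely for any gene, and the share over all genes was not computed. The count therefore does not set the members apart. Groups further apart in the order are compared below.

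**Figure D1:**
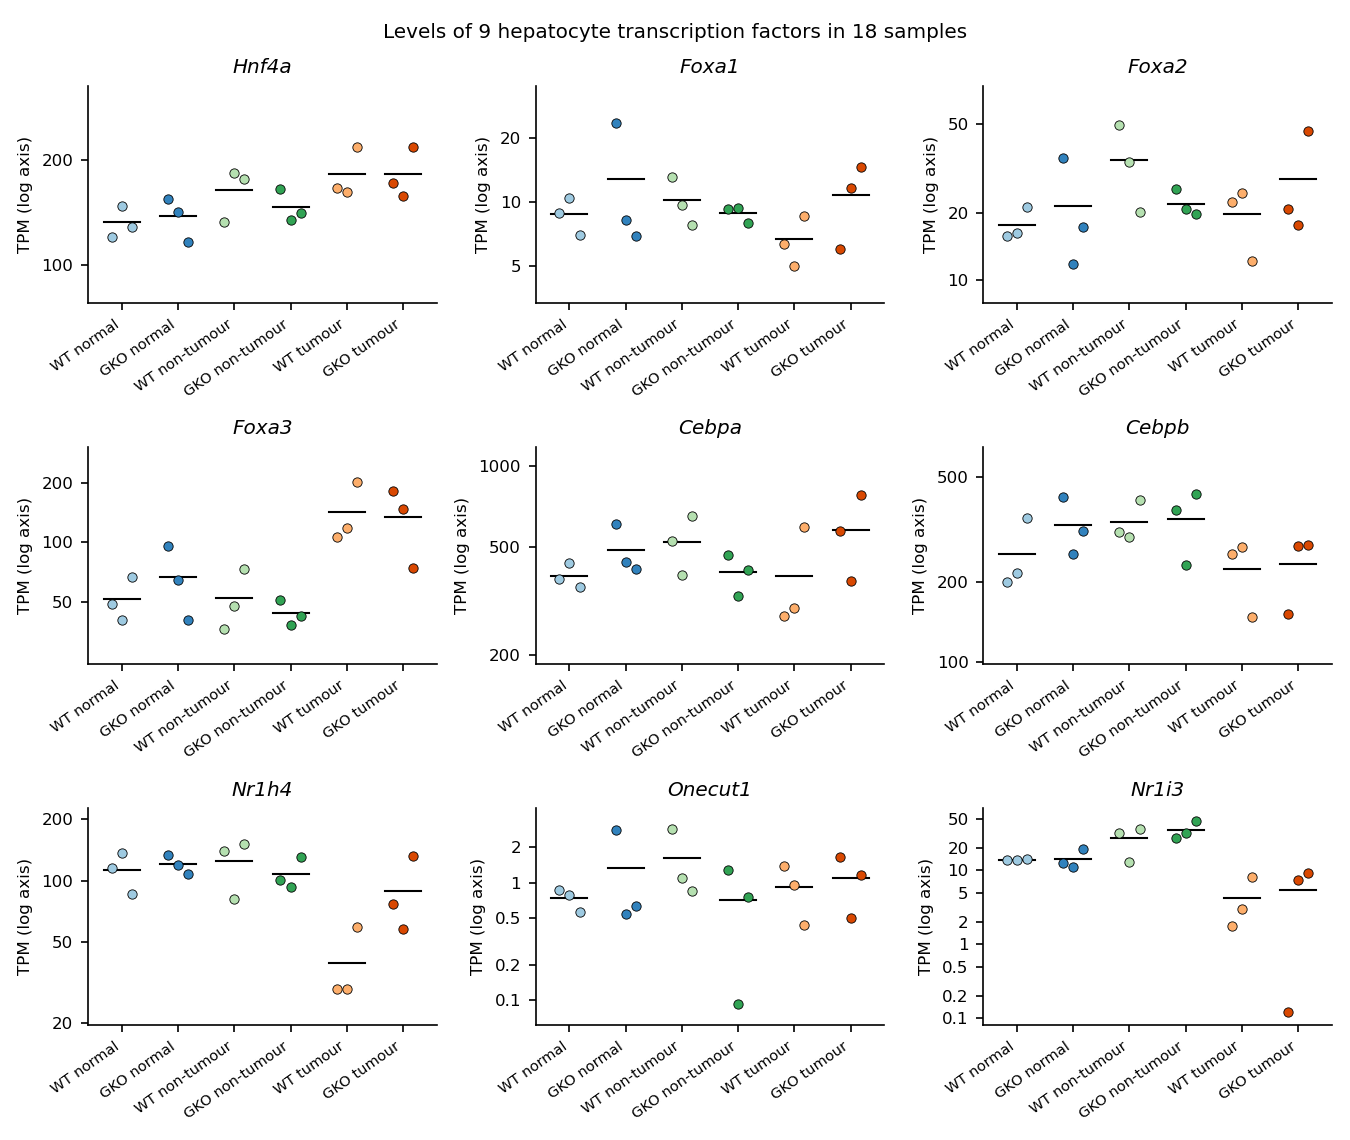
TPM of each member (log axis, a separate scale in each panel) in the 6 groups on the horizontal axis, with 1 point per sample and a line at the group mean of 3 samples. Foxa3 points of all 6 tumours lie above all 6 non-tumour points, Nr1i3 points of all 6 tumours lie below them, and Hnf4a stays between 116 and 217 TPM.

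The question of how tumours differed from the surrounding liver was first asked over both genotypes, with genotype as a covariate. Foxa3 rose in tumours, and the 2 nuclear receptor genes Nr1i3 and Nr1h4 fell, whereas the other 6 members did not pass the test. Thus 1 member was called higher, where 12.2% of the 14106 genes tested were, and 2 were called lower, where 7.87% of all genes were (limma on log2(TPM + 1), adjusted p under 0.05). The median difference of the 9 members was -0.18 on the log2 scale against 0.08 for all genes. Each member was also tested alone with a 2-sided exact permutation test of tumour labels within genotype, whose smallest possible p is 0.005.

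Hnf4a, the hub of the network, was the steadiest member. Its level was 166, 162 and 217 TPM in WT tumours and stood at 172, 158 and 217 TPM in GKO tumours, against 133, 183 and 176 TPM in WT non-tumours and 165, 134 and 141 TPM in GKO non-tumours. The groups overlapped in both genotypes, and the highest of the 18 values was 1.87 times the lowest. The difference between tumours and non-tumours was 0.23 on the log2 scale, with a 95% interval of -0.12 to 0.57 (limma adjusted p = 0.33). A list of 18 HNF4α targets had a median difference of 0.02, with 4 called higher and 2 lower. Among them Apoa1, the main HDL protein, rose by 1.34 and Apoa2, another HDL protein, fell by 1.33 on the log2 scale (limma adjusted p = 0.00106 and 0.000822). The serpin Serpina1a and prothrombin (F2) were also higher, by 1.38 and 1.06 (adjusted p = 0.00362 and 0.00594 by limma).

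Of the FOXA family, Foxa3 alone was called. Foxa3 was at 107, 118 and 204 TPM in WT tumours and at 184, 148 and 73.9 TPM in GKO tumours. It was at 36.1, 47.4 and 73.4 TPM in WT non-tumours and at 50.8, 38.1 and 42.1 TPM in GKO non-tumours. All 6 tumours lay above all 6 non-tumours, although GKO tumour 3 at 73.9 TPM barely cleared WT non-tumour 3 at 73.4 TPM. The share of all genes that separate all 6 tumours from all 6 non-tumours was not computed. Within WT mice alone 24.8% of all genes did not overlap, and within GKO mice 38.3%. The difference was 1.48 ± 0.26 (SE) on the log2 scale (limma adjusted p = 0.00252; exact permutation p = 0.005). This call held in all 22 alternatives, with adjusted p between 0.000968 and 0.00828 in limma. Normal livers held 40.2 to 66.8 TPM in WT and 40.5 to 95.4 TPM in GKO mice, so GKO normal liver 1 was above GKO tumour 3.

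Foxa1 and Foxa2 did not pass. Foxa1 ranged from 5.01 to 8.62 TPM in WT tumours, from 5.99 to 14.6 TPM in GKO tumours and from 7.76 to 13.1 TPM in the 6 non-tumours, a difference of -0.18 with an interval of -0.69 to 0.32. Foxa2 ranged from 12.2 to 24.7 TPM in WT tumours and from 17.7 to 46.6 TPM in GKO tumours, against 19.8 to 49.3 TPM in non-tumours. Its difference was -0.25, with an interval of -0.93 to 0.42. Summed over the 3 genes, the family reached 170 ± 48.1 TPM in WT tumours and 174 ± 37.7 TPM in GKO tumours, against 96.9 ± 5.43 and 74.5 ± 9.57 TPM in the non-tumours (SD, n = 3).

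The share of Foxa3 in the family was also described. Foxa3 made up 78.9, 80.0 and 90.7% of the summed FOXA TPM in WT tumours and 87.2, 83.4 and 54.7% in GKO tumours. In non-tumours the share was 36.7, 52.2 and 72.5% in WT and 59.4, 55.9 and 60.2% in GKO mice. The 5 tumours other than GKO tumour 3 lay above all non-tumours. The ratio of Foxa3 to the sum of Foxa1 and Foxa2 differed by 1.72 on the log2 scale (exact permutation p = 0.02, 6 tumours and 6 non-tumours). It was 1 of 3 ratios tested, beside Nr1h4 over Hnf4a and Cebpa over Cebpb. Since Foxa1 and Foxa2 differed by -0.18 and -0.25, the share and this ratio largely repeat the Foxa3 difference and are not separate results. The Foxa3 start region, from RefSeq on GRCm38.p6, is shown here because Foxa3 was the member that rose. It covers chr7:19023490-19023789 on the minus strand, around the listed start, with 69.0% G or C and 22 CpG.
Foxa3 start region: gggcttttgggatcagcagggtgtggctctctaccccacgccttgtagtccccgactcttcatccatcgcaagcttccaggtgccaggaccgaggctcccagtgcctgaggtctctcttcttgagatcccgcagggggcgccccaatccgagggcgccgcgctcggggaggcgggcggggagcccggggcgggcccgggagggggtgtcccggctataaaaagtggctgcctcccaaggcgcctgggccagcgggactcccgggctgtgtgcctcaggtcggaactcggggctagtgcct

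Among 8 listed FOXA targets, 3 were called higher and 1 lower, with a median of 0.14. Igfbp1, which encodes an IGF-binding protein released by the liver, rose by 5.40 on the log2 scale, from 31.5 ± 21.3 to 2126 ± 1624 TPM (SD, n = 6; limma adjusted p = 0.000967). It was at 2590, 2328 and 3716 TPM in the 3 WT tumours and at 3782 TPM in GKO tumour 2, but at 122 and 216 TPM in GKO tumours 1 and 3. Albumin (Alb) rose by 1.70, to 108812 ± 20760 TPM from 33759 ± 7341 TPM (SD, n = 6; limma adjusted p = 0.000169).

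**Figure D2:**
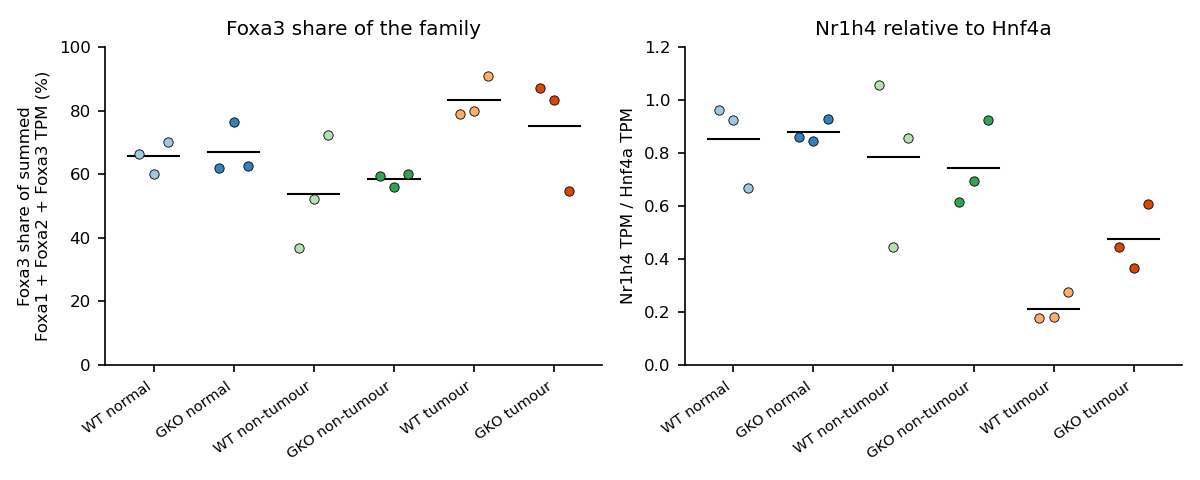
Left, share of Foxa3 in the summed TPM of the FOXA genes (%), and right, the ratio of Nr1h4 TPM to Hnf4a TPM, for each sample (points) with the mean of 3 samples (lines) in the 6 groups. The Foxa3 share is above 78% in 5 of 6 tumours, and the Nr1h4 ratio is below 0.28 in the WT tumours.

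Neither C/EBP gene was called, and the log2 ratio of Cebpa to Cebpb differed by 0.59 (exact permutation p = 0.19). Cebpa was at 277, 297 and 593 TPM in WT tumours and at 572, 374 and 782 TPM in GKO tumours, against 525, 394 and 650 TPM and 465, 330 and 413 TPM in the respective non-tumours. Both the lowest and the highest of its 18 values were in tumours, and its difference was -0.01 with an interval of -0.62 to 0.60. Cebpb was at 255, 271 and 147 TPM in WT tumours and at 151, 274 and 276 TPM in GKO tumours. In non-tumours it was at 309, 295 and 410 TPM in WT and at 375, 232 and 432 TPM in GKO mice. All WT tumours lay below the WT non-tumours, while the GKO groups overlapped. The difference for Cebpb was -0.60 ± 0.23 (SE) on the log2 scale with an unadjusted p of 0.0254 and an adjusted p of 0.0924 in limma (exact permutation p = 0.045). It passed in 2 of 22 alternatives. Macrophages also express Cebpb, and the summed level of 12 macrophage markers moved in the same direction, from 140 to 802 TPM in non-tumours to 91.8 to 289 TPM in tumours, with 0 of the 10 tested called higher and 4 called lower. The share of macrophages in the Cebpb values was not tested.

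Targets of the C/EBP proteins moved in both directions. Of 10 C/EBPα targets, 2 were called higher and 0 lower, with a median of -0.24. Alb was among those called, and Alb, Tat, Pck1 and G6pc were on the FOXA list as well. Of 16 acute phase genes listed for C/EBPβ, 2 were called higher and 2 lower, with a median of -0.06. Orm3 and Saa3, which encode acute phase plasma proteins, differed by -2.95 and -2.29 on the log2 scale, both lower in tumours (limma adjusted p = 0.000672 and 0.0236). Lcn2, which encodes an iron-scavenging protein of the acute phase, was higher in tumours by 4.05 (limma adjusted p = 0.00196) and differed between the genotypes, at 869, 906 and 971 TPM in WT tumours against 209, 176 and 168 TPM in GKO tumours. That difference was -2.31 (limma adjusted p = 0.0434), and its size stayed between -2.40 and -2.25, but the call was lost in 12 of 16 alternatives, among them voom and the fits without WT tumour 1 or 2 or without any 1 of the GKO tumours. The Saa3 call was lost in 4 of 22, including the fits without GKO non-tumour 3 and without GKO tumour 1 or 3.

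Nr1i3 showed the largest difference of the 9 members. In tumours it was at 1.75, 2.98 and 8.14 TPM in WT and at 0.123, 7.34 and 9.08 TPM in GKO mice. It was at 31.7, 12.8 and 36.7 TPM in WT non-tumours and at 27.3, 32.3 and 46.4 TPM in GKO non-tumours. All 6 tumours were below all 6 non-tumours and also below all 6 normal livers, in which it ranged from 11.0 to 19.5 TPM. The share of all genes that separate in this way was not computed. GKO tumour 1 stood apart, with 5 reads in all. The difference was -2.72 ± 0.52 (SE) on the log2 scale (limma adjusted p = 0.00392; exact permutation p = 0.005) and was called in all 22 alternatives. The Nr1i3 start region is shown because this gene was lower in every tumour. It covers chr1:171213720-171214019 on the plus strand, with 54.0% G or C and 3 CpG.
Nr1i3 start region: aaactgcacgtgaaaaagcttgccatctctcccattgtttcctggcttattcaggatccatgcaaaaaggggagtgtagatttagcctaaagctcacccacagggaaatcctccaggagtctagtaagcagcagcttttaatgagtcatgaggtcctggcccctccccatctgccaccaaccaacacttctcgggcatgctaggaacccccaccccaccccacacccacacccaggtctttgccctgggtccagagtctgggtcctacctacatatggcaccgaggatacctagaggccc

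Of 18 listed CAR targets, 8 were called lower and 1 higher, and the median difference was -0.89 against 0.08 for all genes. The P450 genes Cyp2c54, Cyp2c50 and Cyp2c37 were lower, with differences of -5.52, -4.97 and -4.71 on the log2 scale (limma adjusted p = 5.4e-05, 0.000146 and 0.000249). Cyp2c54 was at 4.92, 2.62 and 1.73 TPM in WT tumours and at 2.51, 51.3 and 5.23 TPM in GKO tumours, whereas the 6 non-tumours ranged from 134 to 495 TPM. Cyp2c genes are close copies of each other, and how reads were split among them is uncertain. Cyp3a11, the major drug-metabolising P450 of its family in mouse liver, fell by 2.40 (limma adjusted p = 0.00341). Cyp2b9 went the other way and rose by 3.90 (limma adjusted p = 0.00341). Its level was 113, 80.8 and 40.1 TPM in WT tumours and stood at 320, 112 and 154 TPM in GKO tumours, while non-tumours ranged from 1.17 to 40.4 TPM, so that WT tumour 3 and WT non-tumour 1 overlapped. The highest Cyp2b9 value was thus in GKO tumour 1, the sample with the lowest Nr1i3.

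Nr1h4 fell as well, but less evenly. It was at 29.6, 29.5 and 59.4 TPM in WT tumours and at 76.7, 57.8 and 132 TPM in GKO tumours. In non-tumours it was at 140, 81.7 and 151 TPM in WT and at 101, 93.0 and 131 TPM in GKO mice. The 3 WT tumours lay below all non-tumours, and in the GKO mice tumours 1 and 2 did, while tumour 3 was the highest of its 6 GKO samples. The difference was -1.01 ± 0.32 (SE) on the log2 scale (limma adjusted p = 0.0429; exact permutation p = 0.03). The call was lost in 7 of the 12 fits that left out 1 sample, namely WT non-tumour 1 or 3, GKO non-tumour 3, WT tumour 1 or 2, or GKO tumour 1 or 2, with adjusted p between 0.0607 and 0.102 in limma. The differences in these 7 fits were between -1.05 and -0.86. Averaging WT tumours 1 and 2, the most alike replicates, left -0.86 (limma adjusted p = 0.0902), and without the filter on low genes the adjusted p was 0.0856. Relative to Hnf4a, the ratio of Nr1h4 TPM was 0.178, 0.183 and 0.274 in WT tumours and 0.445, 0.366 and 0.609 in GKO tumours. In non-tumours it was 1.06, 0.445 and 0.858 in WT and 0.613, 0.694 and 0.926 in GKO mice. The log2 ratio differed by -1.25 (exact permutation p = 0.005). Since Hnf4a itself differed by 0.23, this ratio largely repeats the Nr1h4 difference and is not a separate result.

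The Nr1h4 start listed by RefSeq lies inside the annotated gene, whose 5′ end is at base 89533585 of chr10. The region around this start is shown because it was 1 of 2 member regions that held a searched motif. It covers chr10:89506609-89506908 on the minus strand, with 45.7% G or C and 7 CpG, and the capitals mark AGGTCA, the core word of nuclear receptor sites, read on the opposite strand.
Nr1h4 start region: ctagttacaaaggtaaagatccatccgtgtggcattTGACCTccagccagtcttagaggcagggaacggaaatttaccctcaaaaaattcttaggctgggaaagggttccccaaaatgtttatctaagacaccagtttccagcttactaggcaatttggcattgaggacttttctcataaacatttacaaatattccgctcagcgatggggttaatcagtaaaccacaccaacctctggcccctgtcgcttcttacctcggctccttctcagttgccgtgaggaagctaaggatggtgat
Such short words are common: 16.3% of the 32851 listed start regions held AGGTCA on either strand. The other match was the FOXA word TGTTTAC at Foxa1, 141 bases before the start, found in 3.65% of regions. The words TTGCNNAA for C/EBP (10.8% of regions), CAAAGTCC for HNF4α (1.42%) and ATCGAT for HNF6 (0.925%) and the HNF1 motif (0.00913%) were not found at the listed starts of the 9 members. The matches lie in different regions, and the absence of letters from these windows says nothing about binding.

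Of 12 tested genes that FXR is known to induce, 4 were called lower and 1 higher, and their median difference was -0.89. Slco1b2, a bile acid and drug uptake transporter, fell by 3.73 on the log2 scale, from 124 to 363 TPM in non-tumours to 6.50 to 38.5 TPM in tumours (limma adjusted p = 0.000137). Baat, which joins bile acids to taurine and was also on the HNF4α list, fell by 1.33 (limma adjusted p = 0.00392). The following targets are the best known and were named after their values were seen. Abcb11, the bile salt export pump, fell by 1.01 (limma adjusted p = 0.0449), a call that was lost in 12 of 22 alternatives, 9 of them fits that left out 1 of the 12 samples. Nr0b2, which encodes the repressor SHP, had a difference of -0.78 and was not called (limma adjusted p = 0.453). Its 6 tumour values were 144, 141 and 101 TPM in WT and 2.68, 75.9 and 90.7 TPM in GKO mice, so that GKO tumour 1 was far below the rest. Of 4 genes listed as repressed by FXR through Nr0b2, 1 was called higher and 0 lower, with a median of -1.88. The called gene was Apoa1, given above among the HNF4α targets. Cyp7a1, the rate-limiting enzyme of bile acid synthesis, was at 0.754, 0.758 and 0.679 TPM in WT tumours and at 54.3, 8.29 and 3.94 TPM in GKO tumours. In non-tumours it was at 11.6, 15.3 and 51.6 TPM in WT and at 42.5, 6.27 and 41.0 TPM in GKO mice. The WT groups did not overlap, and in WT mice alone Cyp7a1 was called lower, at -3.68 (limma adjusted p = 0.0134), although not when WT tumour 1 or 2 was left out (limma adjusted p up to 0.0727). Over both genotypes its difference was -2.24 (limma adjusted p = 0.0501).

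**Figure D3:**
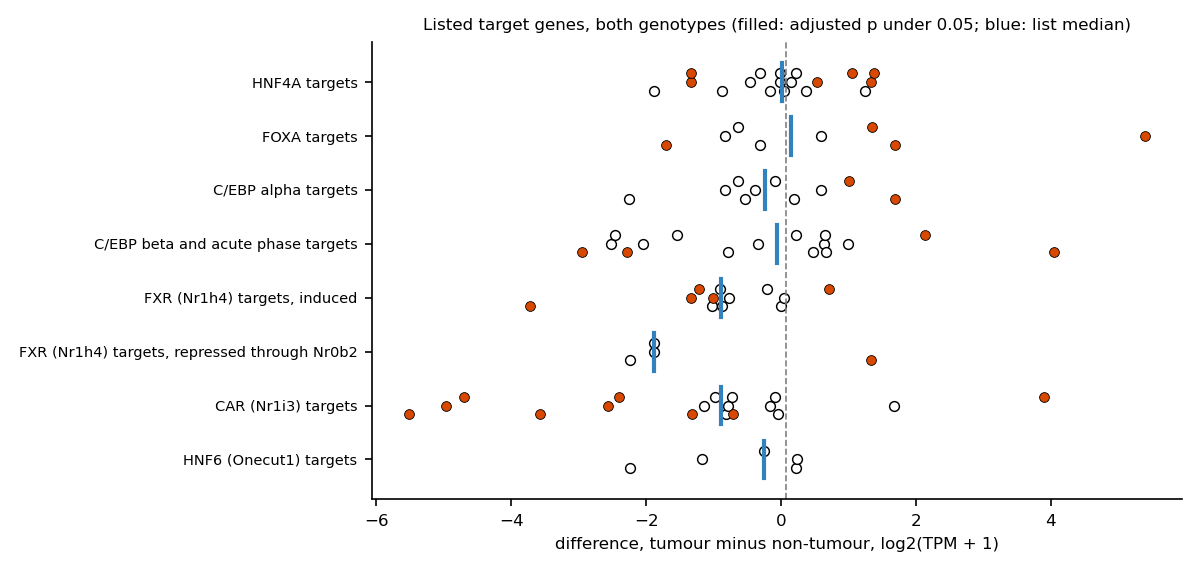
Difference of each listed target gene between tumours and non-tumours, both genotypes together, on the log2(TPM + 1) scale (horizontal axis), 1 point per gene and 1 line of points per target list. Filled points were called by limma, blue bars mark list medians, and the dashed line is the median of all genes, 0.08; the medians of the FXR-induced and CAR lists both lie at -0.89.

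Onecut1 could not be ordered. Its values ran from 0.441 to 1.38 TPM in WT tumours, from 0.505 to 1.66 TPM in GKO tumours, from 0.842 to 2.87 TPM in WT non-tumours and from 0.0931 to 1.27 TPM in GKO non-tumours. The difference was -0.03, with an interval of -0.61 to 0.55. Of the 5 listed HNF6 targets, which include the members Foxa2 and Hnf4a, 0 were called over both genotypes, and the median of -0.25 is that of Foxa2 itself. In WT mice alone 2 were called lower, Cyp7a1 and the glucose transporter gene Slc2a2, the latter at -2.89 (limma adjusted p = 0.00487). Its relative Onecut2, from the list of other liver transcription factors, fell by 2.82 on the log2 scale (limma adjusted p = 0.000527). Onecut2 was at 0.298, 0.309 and 1.88 TPM in WT tumours and at 0.0727, 5.32 and 0.355 TPM in GKO tumours, against 9.66 to 19.7 TPM in non-tumours.

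Of that list of liver factors outside the 9, 29 were tested, 4 were called higher and 4 lower, and their median was 0.06. Tbx3, a factor of perivenous hepatocytes, fell by 2.84 (limma adjusted p = 0.000149). Atf5, a stress factor abundant in liver, rose by 1.13, and Cebpg, a partner of other C/EBP proteins, by 0.73 (limma adjusted p = 0.00281 and 0.0214). The Cebpg call was lost without WT non-tumour 1 or without GKO non-tumour 3.

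Within WT mice alone, 0 of 9 members were called in tumours against non-tumours, where 2.16% of the 14003 genes were called higher and 2.07% lower. At an unadjusted p under 0.05 there were 3, where 1303 of all genes were higher and 1488 lower at such a p. The 3 members were Foxa3 at 1.44, Nr1h4 at -1.66 and Nr1i3 at -2.47, with limma adjusted p of 0.0880, 0.0642 and 0.0592. With a minimum mean of 5 TPM, 2 members were called, and with 1 fit of all 18 samples 3 were. The count over all genes also moved, from 592 to between 147 and 1649 over the 16 alternatives. In 3 against 3 samples an exact permutation test cannot give a p under 0.1. WT tumours and non-tumours did not overlap for 4 members, 1 higher and 3 lower, where 24.8% of all genes did not overlap. Within GKO mice, 1 member was called higher and 0 lower, against 7.75% and 3.97% of the 14092 genes. This was Foxa3, with a difference of 1.52 ± 0.36 (SE; limma adjusted p = 0.0378). That call was lost without any 1 of the 3 GKO non-tumours or without GKO tumour 1 or 2, with adjusted p from 0.0566 to 0.146 in limma. Nr1i3 was next at -2.96 ± 0.78 (SE; limma adjusted p = 0.0505). It was called in 6 of 15 alternatives, and without GKO tumour 1 the difference was -1.95 (limma adjusted p = 0.0207). Nr1h4, at -1.66 in WT mice, had a difference of -0.35 here, with an interval of -1.14 to 0.44, and was not called (limma adjusted p = 0.495). The GKO groups did not overlap for Foxa3 and Nr1i3, where 38.3% of all genes did not overlap, while those of Nr1h4 did overlap. Because the median of all genes was 0.20 in the GKO comparison, the differences were also taken after centring on it. Foxa3 was then at 1.28 and missed the threshold (limma adjusted p = 0.0734), while Nr1i3 was at -3.20 and passed it (limma adjusted p = 0.0406). Foxa3 also missed it after quantile normalization and without the filter on low genes (limma adjusted p = 0.0643 and 0.0838). Nr1i3 passed it in the first of these and missed it in the other (limma adjusted p = 0.0378 and 0.123).

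**Figure D4:**
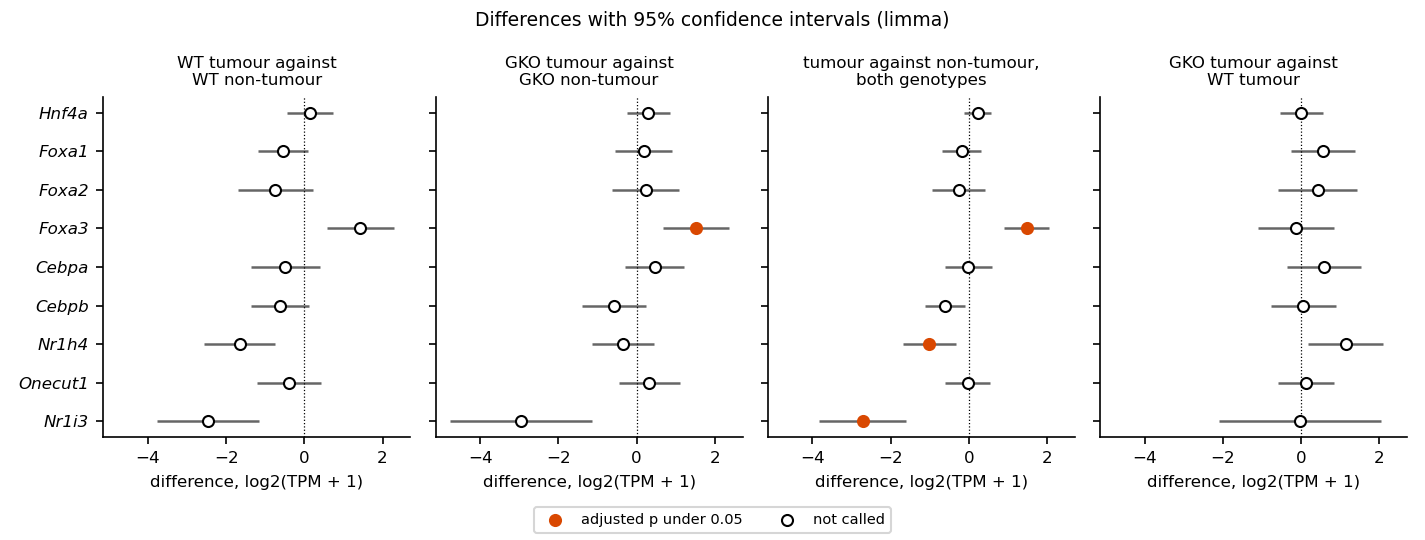
Difference of each member in 4 comparisons (panels) on the log2(TPM + 1) scale, points with 95% confidence intervals from limma. Filled points have an adjusted p under 0.05: 0 of 9 in WT mice, 1 in GKO mice, 3 over both genotypes and 0 between GKO and WT tumours.

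The effect of the deletion was asked in tumours, non-tumours and normal livers. Between GKO and WT tumours 0 of 9 members were called, where 0.0215% of 13964 genes were, and the groups of all 9 members overlapped, where 14.7% of all genes did not. The median of the members was 0.12 against 0.09 for all genes. Nr1h4 had the largest difference, 1.14 ± 0.40 (SE), with a 95% interval of 0.19 to 2.09, an unadjusted p of 0.0250 and an adjusted p of 0.511 in limma. GKO tumour 2 at 57.8 TPM lay just below WT tumour 3 at 59.4 TPM. The other 8 differences were between -0.12 and 0.59. Nr1i3 had the widest interval, -2.10 to 2.04. In non-tumours and in normal livers 0 members were called and 0 had an unadjusted p under 0.05 in limma, where 0% of all genes were called and 799 and 519 genes had such a p. Nr1h4, the member with the seed match, differed by -0.16 in non-tumours, with an interval of -0.88 to 0.55, and by 0.11 in normal livers, with an interval of -0.38 to 0.60. In non-tumours the median of all genes was -0.15, and centring on it moved the Nr1h4 difference to 0.0020. The genotype effect on Nr1h4 in tumours minus that in non-tumours was 1.31 ± 0.53 (SE; unadjusted p = 0.0309, adjusted p = 0.472 in limma). For this difference of effects 0 members were called, and 0.0142% of all genes, with a median of 0.72 for the members and 0.23 for all genes.

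Non-tumours were compared with untreated normal livers to see what differed in DEN-treated liver outside tumours. In WT mice 0 members were called, where 0.00744% of 13440 genes were, and the groups of all 9 overlapped, where 33.9% of all genes did not. Foxa2 was the 1 member with an unadjusted p under 0.05, at 0.84 (unadjusted p = 0.0372, adjusted p = 0.186 in limma), in a comparison where the median of all genes was 0.32. Such an unadjusted p was reached by 3282 of the 13440 genes, so Foxa2 does not stand out. In GKO mice 0 members were called, where 0% of 13530 genes were. Nr1i3 was at 27.3, 32.3 and 46.4 TPM in non-tumours and at 12.6, 11.0 and 19.5 TPM in normal livers. These groups did not overlap, a state shared by 8.73% of all genes. The difference was 1.25 ± 0.29 (SE), with an unadjusted p of 0.00256 and an adjusted p of 0.737 in limma, so it was not called. In WT mice the corresponding values were 31.7, 12.8 and 36.7 TPM against 13.8, 14.0 and 14.2 TPM, a difference of 0.78 that was not called (limma adjusted p = 0.237). WT non-tumour 2 was the low value.

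Within groups, some members varied together. After the group means were removed, Nr1h4 and Cebpa had a Pearson r of 0.90 over the 18 samples, the highest of the 36 pairs of members. The tumours with the highest Cebpa of their genotype, WT tumour 3 at 593 TPM and GKO tumour 3 at 782 TPM, also had the highest Nr1h4. Onecut1 and Foxa2 had an r of 0.69, as did Cebpa and Hnf4a. Of the 36 pairs, 5 had an r of at least 0.5 and 9 had an r below 0, the lowest being -0.38 for Foxa3 and Foxa2. These correlations describe bulk samples of unequal depth, and TPM values of a sample are tied to each other by their fixed sum. What made members vary together was not tested.

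**Figure D5:**
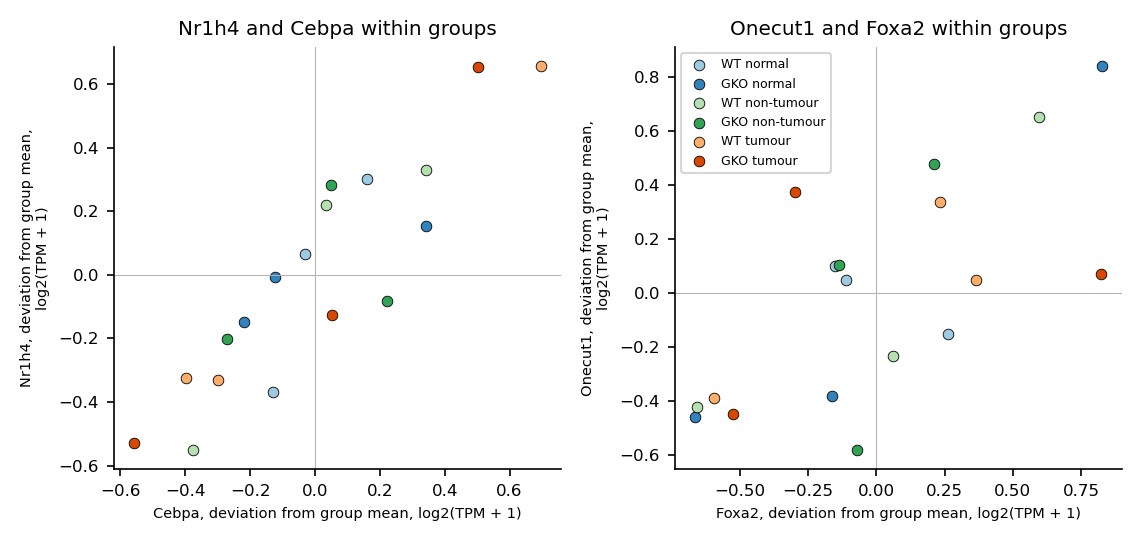
Deviation from the group mean on the log2(TPM + 1) scale, left for Nr1h4 against Cebpa and right for Onecut1 against Foxa2, with 1 point per sample coloured by group. The left points follow a line (r = 0.90) and the right points scatter more (r = 0.69).

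Of 6853 genes averaging 5 TPM or more, those most like a member over the 18 samples were ranked by Pearson r of log2(TPM + 1) for 8 members. The most like Nr1h4 were Vwa8 (r = 0.95), Ces3b and Cxcl12 (both 0.93). The most like Nr1i3 were Lims2 (0.91), Dpp4 and 4930480G23Rik (both 0.90). For Foxa3 they were Apom (0.91), Bex2 (0.90) and Cacfd1 (0.89). Hnf4a was most like Trip12 and Arih1 (both 0.96) and Lsm14a (0.95), and Cebpa was most like Clmn and Mcur1 (both 0.90) and Pex26 (0.89). For Foxa1 the first was Smurf2 (0.85), for Foxa2 Birc2 (0.84) and for Onecut1 Prrc2a (0.69). These are the largest of many correlations and carry no test.

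The tumours differed from the other samples in markers beyond hepatocytes, and the part of these in the results above was not tested. The 9 cholangiocyte markers summed to between 2016 and 8240 TPM in tumours and to between 54.0 and 158 TPM elsewhere. Of the mean sums of 6430 TPM in WT tumours and 3326 TPM in GKO tumours, Tff3 alone made up 6344 and 2756 TPM, while the defining markers Krt7 and Krt19 had group means of at most 0.590 and 3.35 TPM. Over both genotypes, 2 of the 7 tested cholangiocyte markers were called higher and 0 lower. All 7 had positive differences, with a median of 0.97 against 0.08 for all genes. Of 11 tested fibroblast and stellate cell markers, 4 were called higher and 2 lower, and their sum ranged from 56.3 to 201 TPM in tumours and from 44.5 to 101 TPM elsewhere. Col1a1, Acta2 and Col3a1 were higher by 3.06, 2.90 and 2.38 (limma adjusted p = 0.00145, 0.00134 and 0.0022). Of 10 tested endothelial markers, 3 were called higher and 0 lower, namely Cdh5, Pecam1 and Kdr, at sums of 160 to 279 TPM in tumours and 84.3 to 216 TPM elsewhere. The 10 evening clock genes summed to between 270 and 550 TPM in GKO tumours and to between 116 and 200 TPM in WT tumours. All 10 had positive differences between these groups, with 0 called by limma and a median of 1.10. The 10 immediate early genes summed to between 264 and 648 TPM in tumours and to between 144 and 286 TPM elsewhere, with 4 of 9 tested called higher. Cebpa and Cebpb share exonic bases with a gene on the other strand (Gm45091 and Tmem189), as does Nr1i3 with Tomm40l, and whether counting used strand is not given in the sources used here, so reads of each pair cannot be told apart. The Nr1i3 gene lies at chr1:171213970-171220701, Nr1h4 at chr10:89454234-89533585 and Foxa3 at chr7:19013284-19023538 on mm10.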

How the data were processed

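RNA-seq of 18 mouse samples was analysed in 6 groups of 3 that follow the labelled genotype and tissue. Reads were mapped to mm10 by the authors (STAR 2.7.3a, then featureCounts 2.0.0), and TPM values were deposited by the authors for 54838 genes. How TPM was computed, and with which annotation, is not given in the sources used here. TPM multiplied by GENCODE release 21 exonic lengths (54809 genes matched) gave whole reads, within 0.02, for 97.95% to 98.67% of the values of up to 30 reads per sample, and depths of 11925055 to 20751348 reads with a median of 16973791. Depth limited Onecut1 and the lowest Nr1i3 value. All 9 members were found once by symbol, and 28 empty columns were not used. Replicates correlated at r = 0.919 to 0.982, with 0 identical columns.

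Tests used limma 3.58.1 (R 4.3.3; lmFit, then eBayes with trend) on log2(TPM + 1), which understates changes of low genes, over all genes averaging 0.5 TPM or more across the fitted samples, with Benjamini-Hochberg adjustment over all of them in each of 9 comparisons. Single values had exact permutation tests within genotype (400 arrangements). The test was checked on simulated data. The rest was done in Python 3.11.15 (scipy 1.17.1, pandas 2.3.3, numpy 2.4.6, matplotlib 3.10.9). The members and all lists were chosen with earlier results of these data known. Target lists shared some genes, so their counts are not separate results. Named genes were the 9 members, up to 4 genes per list and comparison with the largest called changes and no overlap of groups, and genes among the 3 most like each member (that for Cebpb is not reported here); others are said to be named after their values were seen or illustrate these. Replicate numbers were checked for pairing: deviations of same-numbered samples correlated at 0.101, 0.120 and 0.197 between GKO and WT tumours, all over 0.1, but not in every pair of any other comparison, and the labels name no shared mouse. Alternatives were a pseudocount of 0.1, all genes kept or only those averaging 5 TPM, quantile normalization, median centring, no trend, 1 fit of all 18 samples, a replicate block, each sample left out, and WT tumours 1 and 2 averaged; voom on recovered reads was added after seeing the data.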

Additional observations from a re-analysis of the deposited data

How the results depend on the processing

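Over both genotypes, the count of members called was 3 and stayed between 2 and 4 in the 22 alternatives. Foxa3 and Nr1i3 were called in all 22 and Nr1h4 in 13. In WT tumours against WT non-tumours 0 members were called, but 2 with a mean of at least 5 TPM, 3 with all 18 samples in one fit, and 0 to 2 when 1 sample was left out, with 2 without WT non-tumour 2 or without WT tumour 3. In GKO tumours against GKO non-tumours 1 member was called, but 0 with no filter, 2 with a mean of at least 5 TPM, 2 with all 18 samples in one fit, and 0 to 1 when 1 sample was left out. With voom on the recovered reads, 0 members were called in WT mice, 1 in GKO mice, 4 over both genotypes and 0 in each of the other 6 comparisons, among 554, 1788, 2995 and 0 genes. The cause was not tested.

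With a replicate block, 2 members were called in WT and 2 in GKO mice, and 3 over both genotypes. In GKO mice each tumour correlated best with the non-tumour of its own number (r = 0.124, 0.0690 and 0.0410), a hint from the data and not the design, and in WT mice 1 of 3 did (r = 0.00536, -0.00828 and 0.249). The block changed 0 calls of members between GKO and WT tumours, where 0 were called, or in the remaining comparisons.

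Of 1349 member differences under the alternatives, over all 9 comparisons, 1209 kept their direction and side of the threshold, 17 lost a call, 19 gained one and 104 changed sign. The sign changes came from 33 of 81 differences, each at most 0.49 in size, and 0 involved a call. For Foxa1 and Foxa2 in GKO tumours against non-tumours, the differences were -0.0546 and -0.00367 with median centring, -0.0985 and -0.0533 with quantile normalization and -0.0596 and -0.00842 with voom. Hnf4a between GKO and WT tumours had -0.0501 with median centring, -0.0201 with quantile normalization, -0.0615 with WT tumours 1 and 2 averaged and -0.0333 with voom. Nr1h4 between GKO and WT non-tumours had 0.00197 with median centring and 0.0923 with quantile normalization. Over both genotypes Cebpa had 0.0369 with quantile normalization and 0.121 with WT tumours 1 and 2 averaged, and Onecut1 had 0.0930 with a pseudocount of 0.1. Among the differences given or plotted in the results, the ranges that crossed 0 when 1 sample was left out were -0.0648 to 0.517 (Foxa1) and -0.180 to 0.494 (Foxa2) in GKO tumours against non-tumours, and -0.175 to 0.132 (Cebpa) and -0.199 to 0.154 (Onecut1) over both genotypes. Between GKO and WT tumours they were -0.126 to 0.141 (Hnf4a), -0.390 to 0.261 (Foxa3), -0.220 to 0.343 (Cebpb), -0.0708 to 0.346 (Onecut1) and -0.602 to 0.982 (Nr1i3). For Nr1h4 between genotypes they were -0.439 to 0.00115 in non-tumours and -0.0705 to 0.264 in normal livers. Of 752 values of the 35 named list gene differences, 709 kept direction and side of the threshold, 36 lost a call, 7 gained one and 0 changed sign. Without the filter on low genes, Alb, Apoa1 and Apoa2 lost theirs (adjusted p = 0.109, 0.135 and 0.174 in limma). Counts over all genes moved more, from 592 to between 147 and 1649 in WT and from 1652 to between 149 and 2722 in GKO mice. At 3 samples a group, differences such as that of Nr1h4 between genotypes in tumours had wide intervals, and Onecut1, with 3 to 97 reads, and Nr1i3 in GKO tumour 1, with 5, were limited by depth.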
